A study of Arabidopsis thaliana with 6 samples.

Results

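Among the 27444 protein-coding genes of Arabidopsis thaliana, 161 combined a very abundant mRNA in young leaves with both trimethylation of histone H3 at lysine 4 (H3K4me3) and trimethylation at lysine 27 (H3K27me3) on the gene body. They were chosen by measured values: an mRNA read depth of 82 or more, and at least 150 bases of the body under a domain of each mark. Depth is the mean number of reads over each base of the exons of a gene, so it is a level per length. The material was wild-type Columbia-0 (strain Col0), grown in soil at 22.5 °C with 8 h of light and 16 h of dark. There were 2 ChIP samples for H3K4me3, 2 for H3K27me3, 1 input DNA sample and 1 mRNA sample, all from young leaves. The data hold 1 domain list per mark for all samples and 1 mRNA library, so no value below has a replicate error and no difference was tested. All the counts below describe these lists and this library.

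H3K4me3 is placed near the start of transcribed genes and accompanies active transcription. H3K27me3 is deposited by Polycomb Repressive Complex 2, which in plants keeps developmental and tissue-specific genes silent, usually in domains that cover the transcribed region. Genes with both marks are often genes whose activity changes with tissue, stage or environment. A leaf is a mixture of mesophyll, epidermis, guard cells and veins, and whether both marks lay on the same chromosome copies or in different cells cannot be told apart in such a bulk sample. For the same reason, fewer cells of a type and less RNA per cell cannot be told apart.

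The leaf label was checked against marker genes. The mesophyll markers CAB1, RBCS1A, RCA and LHCB3 had depths from 3998 to 22244, each with H3K4me3 alone. The root markers RHD6 and EXPA7, the flower marker AP1 and the seed markers CRA1 and OLEO1 were not listed in the mRNA table, and the flower marker AG had a depth of 1.41. Of the phloem companion cell markers, SUC2 (112) was itself 1 of the 161 genes, and AHA3 (59.1) carried neither mark. The epidermis markers ATML1 (20.0) and CER5 (72.7) carried both marks below the depth limit. Minor leaf cell types were represented at low depth by the guard cell markers KAT1 (12) and MYB60 (9.03) and by the trichome marker GL2 (14.4). KAT1 carried H3K4me3 alone, and MYB60 and GL2 carried both marks. Of the root, flower and seed markers, CRA1 carried both marks and the others H3K27me3 alone.

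Both marks lay on 16.1% of the 1001 very abundant genes and on 10.1% of all protein-coding genes. The very abundant genes made up 3.65% of protein-coding genes. The other very abundant genes were 821 with H3K4me3 alone, 14 with H3K27me3 alone and 5 with neither mark. H3K27me3 was present on 17.5% of the very abundant genes and on 31% of all protein-coding genes. Among genes that carried H3K4me3, however, the share with H3K27me3 was 16.4% for the very abundant genes and 15.8% over all depths. Nearly all very abundant genes carried H3K4me3, and within that group H3K27me3 was about as frequent as it was among all genes with H3K4me3.

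The H3K27me3 on very abundant genes was mostly of low score. The authors gave each domain a score, used here only to rank domains within a list, and a domain at or above the median score of its list is called strong below. The score rises with domain width, so the strong class is not independent of width. Strong H3K27me3 lay on 5.39% of the very abundant genes and on 21.6% of all genes. Strong domains of both marks together lay on 2.7% of the very abundant genes and on 1.01% of all genes.

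H3K27me3 did not fall steadily with depth. It was on 64.6% of genes absent from the mRNA table, on 30.1% of genes with a depth of 1 to 5 and on 9.23% of genes at 5 to 20. Above that the share was higher again, at 10.7% from 20 to 82, 15.6% from 82 to 200, 19.2% from 200 to 500 and 23.4% at 500 or more. The higher shares at high depth were of weaker domains. Genes with only domains below the median score made up 4.89% at a depth of 5 to 20 and 18% at 500 or more, while strong domains stayed between 4.35% and 6.25% in the 5 classes from a depth of 5 upwards.

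**Figure D1:**
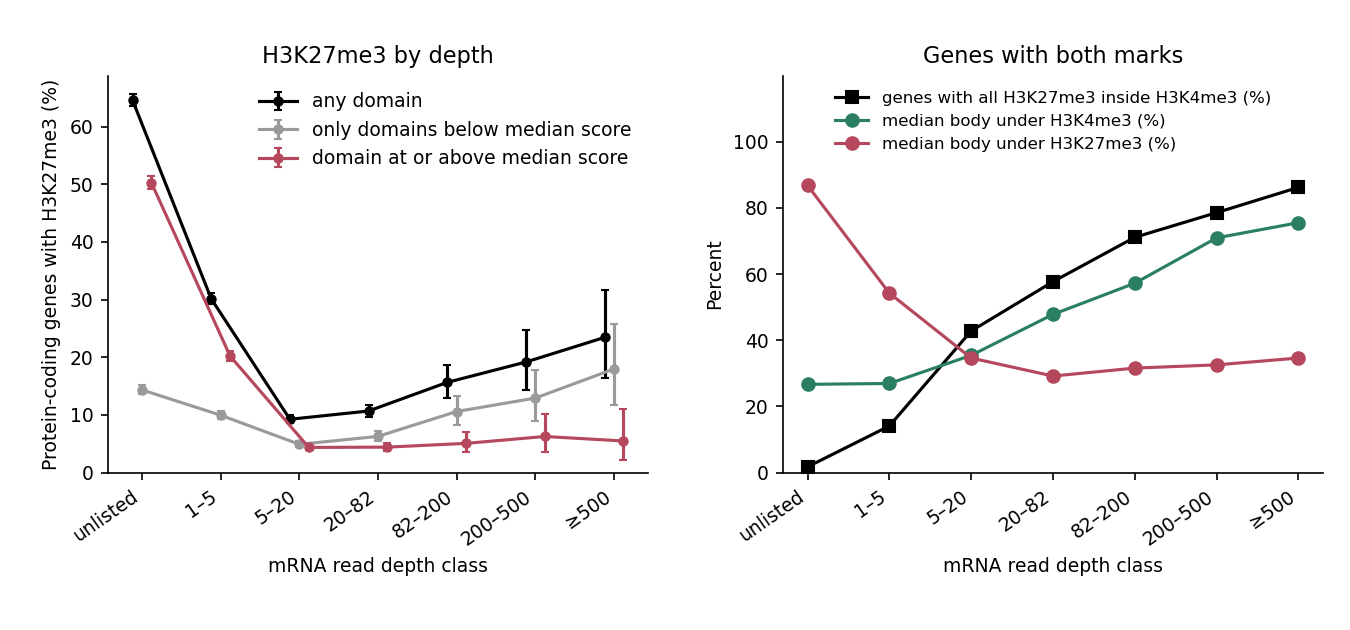
Left, share of protein-coding genes with H3K27me3 in 7 classes of mRNA read depth, with exact 95% Clopper-Pearson intervals that cover counting error only; the share is 64.6% for unlisted genes, lowest at 9.23% for a depth of 5 to 20 and 23.4% at 500 or more. Right, among genes with both marks in each class, the share whose H3K27me3 bases all lie inside H3K4me3 (black squares) and the median share of the gene body under each mark (green, H3K4me3; red, H3K27me3), all in percent.

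The 161 genes ranged in depth from 82.8 to 10871, with a median of 178 and quartiles of 113 and 334. By comparison, the median over all listed protein-coding genes was 6.74. Of the 161, 15 had a depth of 1000 or more and 90 were below 200. They supplied 41 of the 200 deepest protein-coding genes and 11.7% of the summed depth. The depth limit cut through a continuous range: the 5 genes just inside it were DOT1 (82.8), PIN7 (84.1), AT5G48490 (84.2), SBP2 (86.0) and CYP89A2 (86.4). The 5 genes with both marks just outside it were AT1G14250 (81.96), AT1G78020 (81.2), CYP71B26 (80.2), KASI (79.8) and AT3G08030 (79.0).

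On the gene body, H3K4me3 was wide and H3K27me3 narrow. H3K4me3 covered a median of 1200 bases, or 64.1% of the body (quartiles 48.7% and 79.2%). H3K27me3 covered a median of 600 bases, or 32.3% of the body (quartiles 21.3% and 51.8%). In the 2038 less abundant genes with both marks, those listed with a depth of 1 to under 82, the medians were 600 bases (32.1%) under H3K4me3 and 900 bases (44.7%) under H3K27me3. The 586 genes with both marks that the mRNA table does not list are left out of this class. The class is itself mixed: the median shares under H3K4me3 and H3K27me3 were 26.9% and 54.2% at a depth of 1 to 5, 35.4% and 34.6% at 5 to 20, and 47.8% and 29.2% in the 305 genes at 20 to 82. The genes closest to the limit thus had the same order as the 161, with a narrower H3K4me3. Median gene length was 2042 bases in the 161 and 2211.5 in the less abundant class. H3K27me3 covered more bases than H3K4me3 on 27 of the 161 genes (16.8%), and on 55.0% of the less abundant ones.

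The widest H3K27me3 domain on a gene had a median width of 600 bases, against 900 on the less abundant genes with both marks. Within the less abundant class the median was 900 bases at a depth of 1 to 5, and 600 at 5 to 20 and at 20 to 82. The less abundant genes closest to the depth limit thus had the same median as the very abundant ones. On the very abundant genes with both marks, the widest domain was 300 bases wide on 39 genes, 600 on 60, 900 on 33 and wider on 29. Widths in this list rise in steps of 300 bases, so 39 of these domains were as narrow as the list allows. The domain lay wholly inside the body on 139 genes (86.3%, against 72.7% of the less abundant genes). On 4 genes, PRP4, EMB3136, STO and AT4G14320, it also covered bases of another protein-coding gene.

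The fewest H3K27me3 bases on any of the 161 genes was 300, found on 38 of them, of which CAB3, LHCA3, PSAD-1, GAPA-2 and ATMS1 were the deepest. Genome-wide, 95 protein-coding genes had between 1 and 149 bases of H3K27me3, and 0 of them reached the depth limit. Of those that also carried H3K4me3, the deepest were AT2G27680 (68.7), EMB2761 (59.2), AT2G19310 (51.2), AT5G08060 (50.6) and VAG2 (32.4), with depths in brackets. They had 24 to 117 bases of H3K27me3, none of them shared with H3K4me3. The fewest H3K4me3 bases on any of the 161 genes was 150, on AT3G22240. The rule on bases therefore excluded no very abundant gene with a smaller overlap of H3K27me3.

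The marks shared bases on nearly all of these genes. At least 150 bases lay under both domains on 157 of the 161 genes (97.5%), and the median was 600 bases. The share was 89.5% of the less abundant genes with both marks and 95.4% of the unlisted ones. Shared bases were thus usual on genes with both marks and not particular to the 161. On AT2G47115, AT3G22235, AT4G14320 and AT5G19540 no base was shared. Summed over the 161 genes, 86.7% of the H3K27me3 bases lay under H3K4me3, which covered 59.3% of all body bases. On the less abundant genes with both marks, 47.9% of the H3K27me3 bases lay under H3K4me3, which covered 29.9%.

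The usual arrangement was a short H3K27me3 domain inside a longer H3K4me3 domain. All H3K27me3 bases on the body lay inside H3K4me3 on 122 of the 161 genes (75.8%, exact 95% interval 68.4% to 82.2%), and on 28.6% of the less abundant genes with both marks. The reverse, with all H3K4me3 bases inside H3K27me3, was seen on 20 genes (12.4%) and on 42.1% of the less abundant ones. The remaining genes were 12 with partly shared domains, 3 with the same bases under both (EMB3136, NEET and AT5G48490) and the 4 with no shared base. Among genes with both marks, the share with H3K27me3 inside H3K4me3 went from 1.71% in unlisted genes through 42.8% at a depth of 5 to 20 and 57.7% at 20 to 82 to 86.2% at 500 or more.

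These arrangements differed in more than position. The 122 genes with H3K27me3 inside H3K4me3 had a median depth of 188, a median of 69.4% of the body under H3K4me3 and 27.3% under H3K27me3, and 16 of them had a strong H3K27me3 domain. The 20 genes with H3K4me3 inside H3K27me3 had a median depth of 159, with 44.2% of the body under H3K4me3 and 74.7% under H3K27me3, and 18 had a strong H3K27me3 domain. The widest H3K27me3 domain had a median of 600 bases in the former and 1500 bases in the latter. Since the arrangement is read from the same domains, these widths describe it and do not support it.

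**Figure D2:**
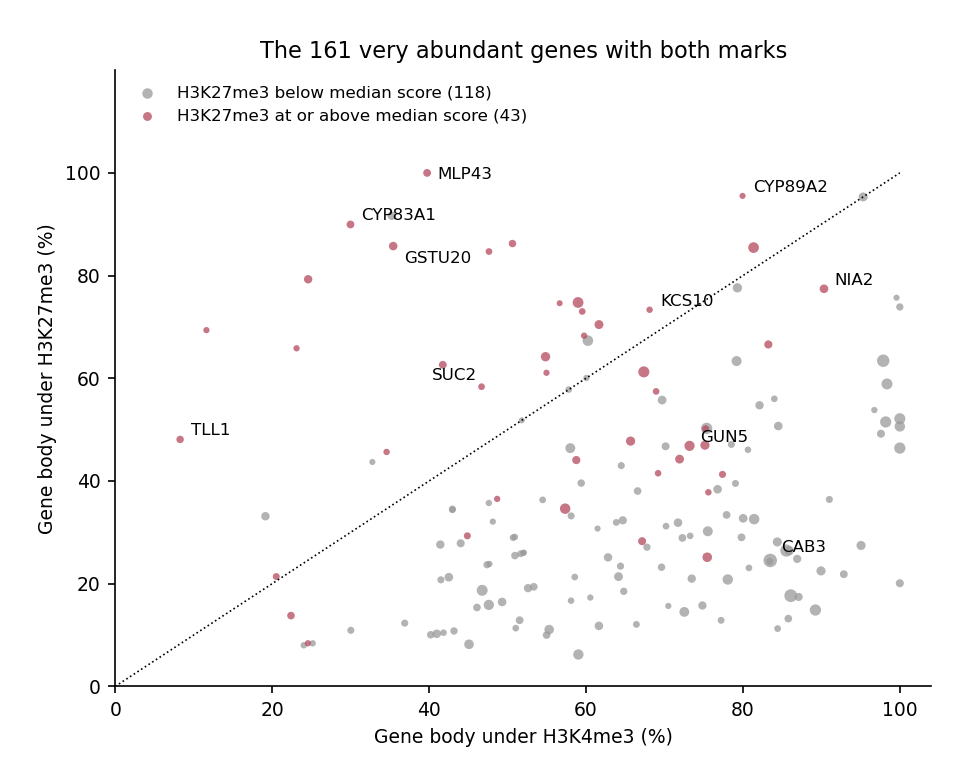
Percent of the gene body under H3K27me3 (y axis) against percent under H3K4me3 (x axis) for the 161 genes; each point is 1 gene, larger points have a deeper mRNA, red marks an H3K27me3 domain at or above the median score of its list (43 genes), grey a lower one (118 genes), and the dotted line is equality. Most genes sit below the line, and the genes above it, such as MLP43, CYP83A1 and TLL1, are mostly red.

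Across the 161 genes the shares of the body under each mark were nearly unrelated (Spearman rho 0.16). Depth was related to the share under H3K4me3 (rho 0.35) and hardly to the share under H3K27me3 (rho 0.012) or to the width of the widest H3K27me3 domain (rho -0.093). These are descriptions across genes of 1 library, which share their depth and their domain lists.

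H3K4me3 had a higher median score on these genes than on very abundant genes with H3K4me3 alone in each of 3 depth classes. At a depth of 82 to 200, the widest H3K4me3 domain had a median score of 2916 (95% interval of the median 2536 to 3587) with both marks and 1960.5 (1849 to 2066) with H3K4me3 alone. At 200 to 500 the medians were 3774 (3357 to 4116) and 2450 (2307 to 2680). At 500 or more they were 4054 (2635 to 5541) and 3700.5 (3244 to 4249), and there the intervals overlapped. Coverage relative to the body did not differ in 1 direction, with a median of 57.2% against 52.2% at 82 to 200 and 75.5% against 82.8% at 500 or more. In bases, H3K4me3 covered more of the genes with both marks. The medians were 1200 against 900 at 82 to 200, 1200 against 1037 at 200 to 500 and 1500 against 1347 at 500 or more. The 161 genes were also longer, with a median of 2042 bases against 1830. Since the score rises with domain width, the score difference is not separate from width. The parts of width and length in it were not tested.

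H3K27me3 was about as frequent on the genes next to these as on the genes next to any protein-coding gene. The 161 genes had 322 adjacent positions, 1 on each side, of which 8 were held by others of the 161. Of the remaining 314 positions, 85 (27.1%, exact 95% interval 22.2% to 32.3%) held a gene with H3K27me3. Counted the same way, without positions held by the same class, the share was 23.9% (21.8% to 26.1%) beside very abundant genes with H3K4me3 alone and 30.4% (28.9% to 31.9%) beside less abundant genes with both marks. The interval for the 161 overlapped both. With every position counted, the share was 28.9% (24.0% to 34.2%) beside the 161 and 31.0% beside all protein-coding genes. On the chromosomes, the share of very abundant genes that carried both marks ran from 12.9% on chromosome 3 to 21% on chromosome 4. Their exact 95% intervals, 8.6% to 18.4% and 15.1% to 27.9%, overlapped, and both held the 16.1% of all very abundant genes. The pairs AT1G29660 and AT1G29670, AT3G22235 and AT3G22240, CAT2 and PIP3, and TUB2 and TUB3 were direct neighbours that both belonged to the 161, and AT1G29670 also overlaps another annotated gene. No such pair shared its widest H3K27me3 domain. TUB2 (92.6) and TUB3 (97.7), which encode beta-tubulins, are near-identical copies. Reads may be divided between them, so their depths and domains are uncertain. Of the 161 genes, 36 (22.4%) overlapped another annotated gene. The share was 28.3% over all protein-coding genes and 32.5% over very abundant genes with H3K4me3 alone. Since strand use is not given, the depth of these 36 genes can hold reads of the gene they overlap.

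Roles were assigned from general knowledge to 87 of the 161 genes, after the genes were known, and the other 74 were left without a role. Over all 161, H3K27me3 lay inside H3K4me3 on 122 genes and was strong on 43. In 6 groups with 47 genes of the chloroplast, primary metabolism and light response, H3K27me3 lay inside H3K4me3 on 46 genes and was strong on 7. It covered a median of 27.1% of the body, and the median depth was 298. In 3 groups with 27 genes of the cuticle, the cell wall and defence, it lay inside H3K4me3 on 14 genes and was strong on 16. There it covered a median of 55.8% of the body, and the median depth was 130. Outside both sets, H3K27me3 lay inside H3K4me3 on 6 of 8 transport genes, 4 of 5 genes of cytosolic translation and 52 of the 74 genes without a role, and was strong on 2, 2 and 16 of them. The sets were put together after the values were seen, and no difference between them was tested.

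**Figure D3:**
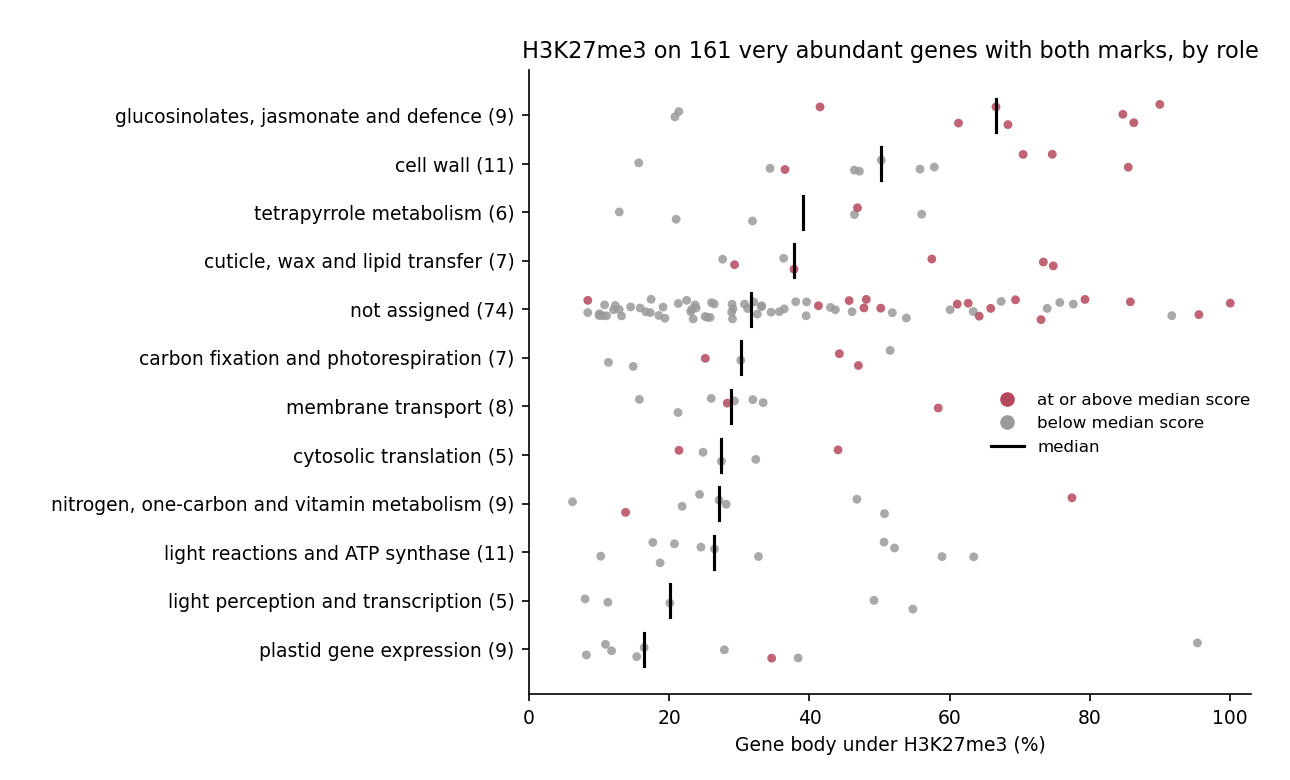
Percent of the gene body under H3K27me3 for each of the 161 genes (points), grouped by role, with the number of genes in brackets and a black bar at the group's median; red points have an H3K27me3 domain at or above the median score of its list. The medians run from 16.4% in plastid gene expression to 66.6% in glucosinolates, jasmonate and defence, where 7 of 9 points are red.

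Genes of the light reactions had the highest median depth of the role groups. Their H3K27me3 covered a median of 600 bases, the same as over all 161 genes. The 11 genes of this group had a median depth of 1370, all 11 had H3K27me3 inside H3K4me3 and 0 had a strong H3K27me3 domain. CAB3, which encodes a chlorophyll a/b-binding protein of the photosystem II antenna, had a depth of 10871, with 1021 bases under H3K4me3 and 300 under H3K27me3. Its H3K27me3 domain, on chromosome 1 from 10472701 to 10473000 in TAIR10, lay inside an H3K4me3 domain of 2250 bases from 10471051 to 10473300. CAB3 is nearly identical to CAB1 and CAB2, so mRNA and ChIP reads may be divided among them. Its depth, and which copy carries the H3K27me3, are therefore uncertain. In these lists CAB1 (22244) and CAB2 (8364) carried H3K4me3 alone.

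The other light-reaction genes followed the same layout. LHCA3, a photosystem I antenna protein, had a depth of 6006 with 300 bases under H3K27me3, and PSAD-1, the ferredoxin-docking subunit of photosystem I, had 3567 with 300 bases. LHCB6, a minor photosystem II antenna protein, had a depth of 4288 and 900 bases (63.4% of the body), and it overlaps another annotated gene. The widest relative coverage here was thus in LHCB6. The chloroplast ATP synthase subunits ATPD (1488), ATPC1 (1370) and PDE334 (934) had 600, 900 and 600 bases under H3K27me3. NPQ4, the PsbS protein of photoprotective energy dissipation, had a depth of 1353 and 600 bases.

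Carbon fixation and photorespiration gave 7 genes, all with H3K27me3 inside H3K4me3 and 3 with a strong H3K27me3 domain. RBCS2B, a Rubisco small subunit, had a depth of 1643 with 600 bases under H3K27me3 (51.5% of the body). It shares near-identical sequence with its gene family, so its depth and the assignment of its domains are uncertain. GAPA-2, a subunit of chloroplast glyceraldehyde-3-phosphate dehydrogenase, had 1698 with 300 bases, and HCEF1, a plastid fructose-1,6-bisphosphatase, had 667 with 600 bases. The strong domains were on genes of photorespiration. GLDP1, the P protein of glycine decarboxylase, had a depth of 538 and 1200 bases of H3K27me3. CAT2, a peroxisomal catalase, had 417 and 1500 bases, and DiT1, a chloroplast dicarboxylate transporter, had 334 and 1200 bases. HCEF1, GLDP1, CAT2 and DiT1 each overlap another annotated gene.

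Tetrapyrrole genes gave 6 members with a median depth of 270. GUN5, the H subunit of magnesium chelatase, had a depth of 795 and 2400 bases under both marks, the second largest such total among the 161. Its H3K27me3 domain on chromosome 5, from 4389601 to 4392000, lay inside an H3K4me3 domain from 4388551 to 4392300. CRD1, a subunit of the cyclase that forms the fifth ring of chlorophyll, had 1726 and 900 bases, with all of its body under H3K4me3. CHLM, the magnesium protoporphyrin methyltransferase, had 284 and 600 bases. GUN5 was thus the gene of this group with a strong H3K27me3 domain, and the other 5 had weaker ones. CRD1 and CHLM overlap another annotated gene.

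In plastid gene expression, 8 of 9 genes had H3K27me3 inside H3K4me3, and the median share of the body under H3K27me3, 16.4%, was the lowest of the role groups. EMB3136, a plastid ribosomal protein, was the exception, with the same 795 bases (95.3% of the body) under both marks at a depth of 372. It overlaps another annotated gene, so its depth can hold reads of both. RABE1b, the plastid elongation factor Tu, had a depth of 949 and the only strong H3K27me3 domain of the group.

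Among 9 genes of nitrogen, one-carbon and vitamin metabolism, NIA2 had the most H3K27me3 of all 161 genes. NIA2, the main nitrate reductase of leaves, had a depth of 298 with 2700 bases (77.4% of the body) under both marks. Its H3K4me3 domain ran on chromosome 1 from 14158501 to 14161650, and the wider of its 2 H3K27me3 domains ran from 14160001 to 14161500. GLU1, the ferredoxin-dependent glutamate synthase, had a depth of 171 with 1200 bases of H3K27me3 on a body of 8704 bases, and overlaps another annotated gene. ATMS1, a methionine synthase, had the smallest share of the body under H3K27me3, 6.21%, at a depth of 865. All 9 genes had H3K27me3 inside H3K4me3.

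The group of light perception and transcription held the B-box proteins STO (256), COL4 (217) and BBX15 (215), the chloroplast development factor GLK2 (115) and the blue-light receptor PHOT1 (101), with depths in brackets. All 5 had H3K27me3 inside H3K4me3, of 300 to 900 bases, and 0 of them had a strong H3K27me3 domain. STO overlaps another annotated gene. Cytosolic translation gave 5 genes, of which 4 had H3K27me3 inside H3K4me3. A strong H3K27me3 domain was on AT4G14320 and on ATARCA, a ribosome-associated scaffold protein, with a depth of 233 and 900 bases.

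Cuticle, wax and lipid transfer genes gave 7 members, of which 5 had a strong H3K27me3 domain and 3 had H3K27me3 inside H3K4me3. A list of 24 cuticle and wax genes was written after the 161 were known, and 17 of them carried H3K27me3, 13 of these with H3K4me3 as well, beside 31% and 10.1% of all protein-coding genes. The 6 very abundant genes of the list all carried both marks, beside 16.1% of all very abundant genes. This is no independent result, because the list was prompted by them. KCS6, which elongates very-long-chain fatty acids for wax, had a depth of 111 and 1500 bases under both marks. KCS10, a related enzyme of epidermal differentiation, had 98.5 with 1950 bases under H3K4me3 and 2100 under H3K27me3. CYP86A2, a fatty acid hydroxylase of cutin synthesis, had 101 and 900 bases of H3K27me3, and AT4G13840, the wax elongation factor CER26, had 128 and 882 bases. The lipid transfer proteins LP1 (1204) and LTPG1 (114) had 711 and 600 bases of H3K27me3. Strong H3K27me3 was on KCS6, KCS10, CYP86A2, AT4G13840 and LP1. CYP86A2 and LTPG1 overlap another annotated gene.

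Cell wall proteins showed both layouts. Of 11 genes, 6 had H3K27me3 inside H3K4me3, and 4 had a strong H3K27me3 domain (PRP4, CWLP, FAH1 and DOT1). PRP4, a proline-rich wall protein, had a depth of 1123, with 1733 bases under H3K27me3 (85.5% of the body) and all of its 1650 H3K4me3 bases inside them. CWLP, a proline-rich linker of wall and membrane, had 360 with 1200 bases of H3K27me3, and both PRP4 and CWLP overlap another annotated gene. ELP, an extensin-like protein, was deeper, at 1859, with a partly shared 600-base domain. EXPA8, an expansin, had a depth of 90.5 and 300 bases of H3K27me3, and XTH7, a xyloglucan-modifying enzyme, had 107 and 1200 bases.

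Defence and glucosinolate genes had the highest median share of the body under H3K27me3, 66.6%, and 7 of 9 had a strong H3K27me3 domain. ESM1, which directs glucosinolate breakdown towards isothiocyanates, had a depth of 1476 with 1650 bases under H3K4me3 and 1500 under both. It was the deepest gene with strong domains of both marks. Its wider H3K27me3 domain was on chromosome 3 from 4730701 to 4731600. CYP83A1, an enzyme of aliphatic glucosinolate synthesis, had a depth of 191 with 1800 bases of H3K27me3 and 600 of H3K4me3, all inside the H3K27me3 domain on chromosome 4 from 7990501 to 7992300. CORI3, a cystine lyase induced by jasmonate, had 113 with 2400 and 1350 bases. VSP2, a vegetative storage protein, had 95.2 with 1200 bases of H3K27me3, partly shared. AT1G66100, a thionin that overlaps another annotated gene, had 159 with 1022 bases.

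Of the genes that move solutes, the 3 aquaporins PIP2E (299), PIP1C (120) and PIP3 (110) each had 600 bases of H3K27me3 inside H3K4me3. SUC2, the sucrose carrier that loads the phloem in companion cells, had a depth of 112 and the reverse layout. Its H3K4me3 domain on chromosome 1, from 8031751 to 8032950, lay inside an H3K27me3 domain from 8031601 to 8033100. CAX1, a vacuolar calcium exchanger, had a depth of 213 and 1200 bases of strong H3K27me3, partly shared.

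Among genes without an assigned group, several had more H3K27me3 than H3K4me3. MLP43, a major latex-like protein, had a depth of 192 and was the only gene with its whole body, 1132 bases, under H3K27me3. Its H3K4me3 domain on chromosome 1, from 26725951 to 26726400, lay inside the H3K27me3 domain from 26725501 to 26726700. CYP89A2 had a depth of 86.4 with 95.5% of the body under H3K27me3, and its domain from 24113101 to 24114900 on chromosome 1 held all 1500 bases of H3K4me3. RGF9, a secreted peptide precursor, had 292 with 91.7%. GSTU20, a glutathione transferase, had 281 with 85.7%, and AT1G67870 had 267 with 79.3%. TLL1, a lipase, had 159 with 2616 bases of H3K27me3 and 450 of H3K4me3. RD22, a dehydration-responsive protein, had 463 with 1756 and 1500 bases. In each of these 7 genes H3K27me3 covered more bases than H3K4me3.

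**Figure D4:**
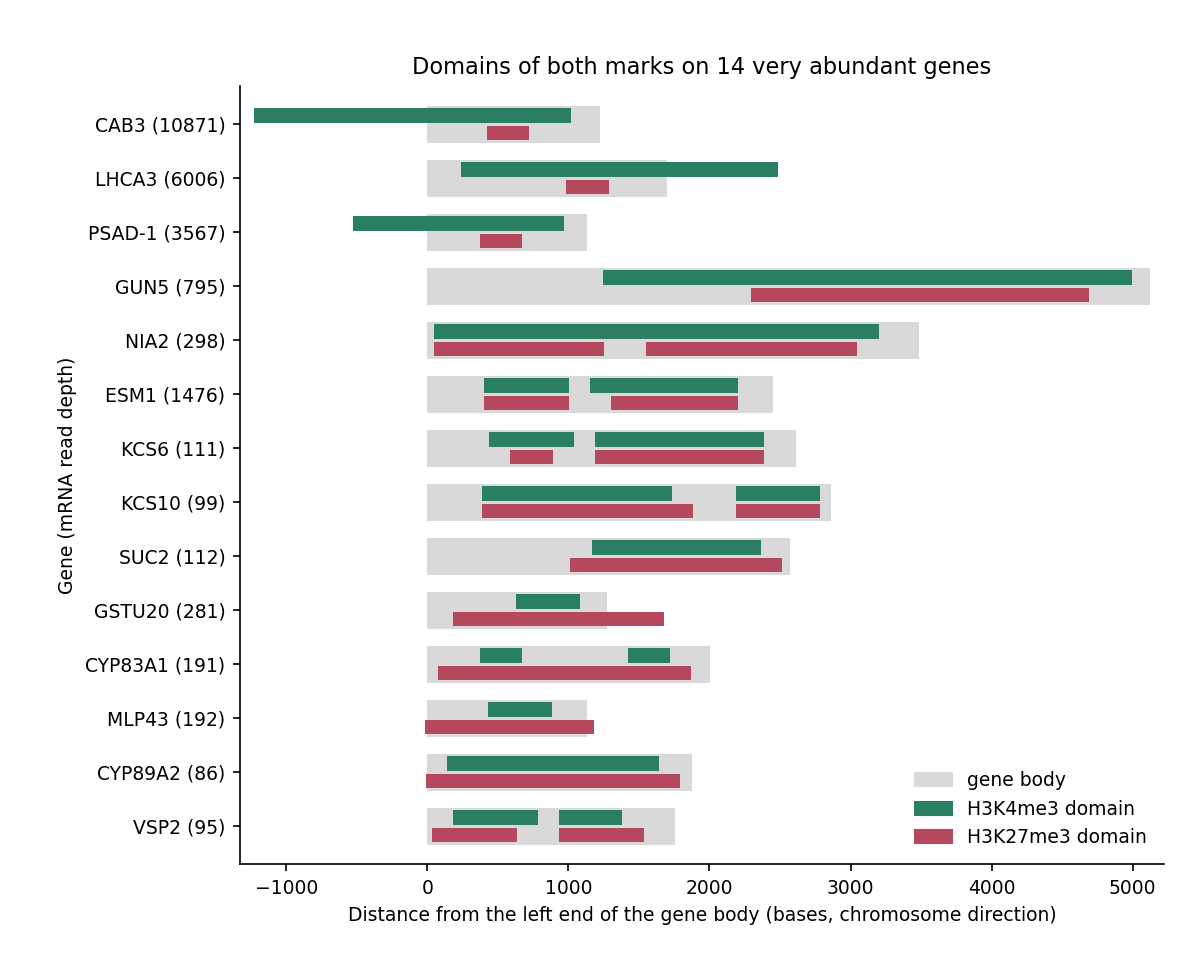
H3K4me3 (green) and H3K27me3 (red) domains on 14 of the 161 genes, drawn to scale against the gene body (grey), in bases from the body's left end in chromosome direction, with mRNA read depth in brackets; strand is not shown. In CAB3, LHCA3, PSAD-1, GUN5 and NIA2 the red domains lie inside the green, and in SUC2, GSTU20, CYP83A1, MLP43 and CYP89A2 the green lie inside the red.

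Strong domains of both marks were on 27 of the 161 genes (16.8%), against 11.6% of the less abundant genes with both marks. Besides ESM1, PRP4, GUN5, GLDP1, CAT2, DiT1, NIA2, GLU1, KCS6, KCS10, CYP86A2, AT4G13840, SUC2, RD22, CAX1, CWLP, ATARCA and CYP89A2, they were RABE1b, the aldolase FBA5, the dioxygenase AT2G25450, the protease AT3G14067, the cytochromes P450 CYP706A1 and FAH1 (a lignin enzyme), the dehydrogenase ELI3-1, AT5G19540 and AT5G63180. Among these, RABE1b, FBA5 and AT3G14067 overlap another annotated gene. Strong H3K27me3 by itself was on 43 of the 161 (26.7%, against 52.9% of the less abundant). Within the less abundant class it was on 62.9% at a depth of 1 to 5, 41.4% at 5 to 20 and 36.4% at 20 to 82. Strong H3K4me3 was on 133 of the 161 (82.6%, against 35.6% of the less abundant). It was on 87.3% of very abundant genes with H3K4me3 alone, so it was not particular to the 161.

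The pathway lists gave a share of genes with both marks close to that of very abundant genes in general. In 7 lists of photosynthesis with 111 genes, 101 were very abundant, and 17 of these (16.8%, exact 95% interval 10.1% to 25.6%) carried both marks, beside 16.1% over all very abundant genes. They were CAB3, LHCB6, LHCA3, PSAD-1, NPQ4, ATPC1, ATPD, PDE334, RBCS2B, GAPA-2, HCEF1, GLDP1, GLDP2, CAT2, GUN5, CHLM and CRD1. The other photosynthesis genes at this depth carried H3K4me3 alone, 16 of 19 in the antenna and 18 of 21 in the Calvin cycle. The list of nitrate and ammonium assimilation had 2 of 4, NIA2 and GLU1. Aquaporins had 3 of 12, cold-regulated genes 1 of 6 (COR15A, a chloroplast protein of freezing tolerance, with a depth of 819 and 300 bases of H3K27me3), and cell wall loosening 2 of 6. Of 13 very abundant genes of basal cell functions, 0 had both marks.

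In the list of glucosinolate breakdown and storage proteins, all 4 very abundant genes carried H3K27me3, beside 17.5% of all very abundant genes. ESM1 and VSP2 also had H3K4me3, while the myrosinases TGG1 (1029) and TGG2 (371), which hydrolyse glucosinolates in specialised cells, had H3K27me3 alone. Another of the 14 very abundant genes with H3K27me3 alone was CYP79F1 (91.6), an enzyme of aliphatic glucosinolate synthesis like CYP83A1.

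**Figure D5:**
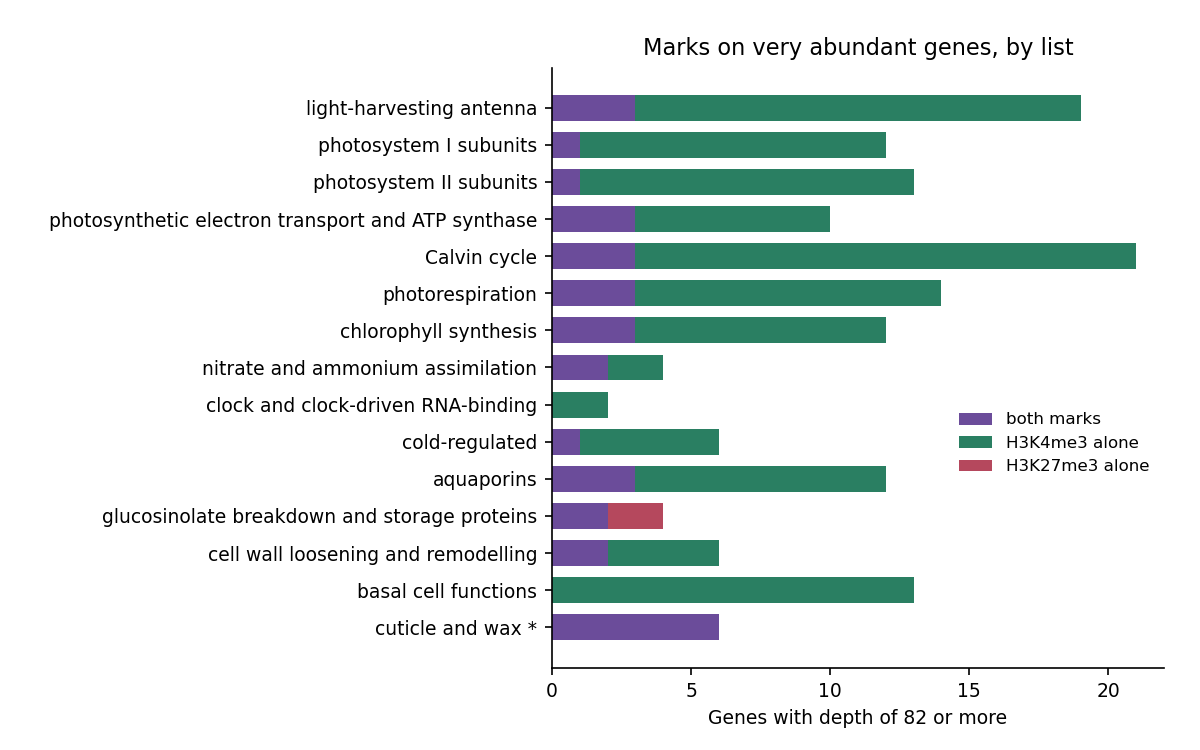
Number of genes with a depth of 82 or more in each of 14 gene lists and in the list of cuticle and wax genes (asterisk, written after the 161 genes were known), split by mark: both (purple), H3K4me3 alone (green), H3K27me3 alone (red). Both marks are on 3 of 19 antenna genes, on 0 of 13 genes of basal cell functions and on all 6 cuticle and wax genes.

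Some close relatives of these genes lacked H3K27me3, in pairs chosen after their values were seen. PSAD2 (1820), the other copy of the photosystem I subunit, had H3K4me3 alone, as did GAPA (1231), RBCS1B (2459) and RBCS3B (4152). For the near-identical Rubisco small subunits, which copy carries the H3K27me3 is uncertain, because ChIP reads may be divided among them. SAHH2, an adenosylhomocysteinase of the methyl cycle, had a depth of 387 with 600 bases of H3K27me3, and its copy SAHH1 had 395 with H3K4me3 alone. COR15B, the neighbour in sequence of COR15A, had 214 with H3K4me3 alone. CAT3 had 1457 with H3K4me3 alone, beside 417 in CAT2. Depth was nearly equal in the SAHH2 and SAHH1 pair, and in the other pairs the copy without H3K27me3 was deeper in some and shallower in others.

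In other pairs both copies carried both marks, and the copy outside the 161 had a depth below 82, as the rule requires. NIA1 had a depth of 47.3 and 2684 bases of H3K27me3, beside 298 and 2700 in NIA2. GLK1 had 78.6 and 1200 bases, beside 115 and 300 in GLK2. KCS5 had 4.48 and 1500 bases, beside 111 and 1500 in KCS6, and the sucrose carrier SUC1 had 27.6 and 1800 bases, beside 112 and 1500 in SUC2. The NIA1 and NIA2 pair and the KCS5 and KCS6 pair thus had nearly equal H3K27me3 coverage at unequal depth. Their H3K4me3 was unequal, with 1500 bases on NIA1 and 3150 on NIA2, and 1200 on KCS5 and 1800 on KCS6. GLK1 had 1800 bases of H3K4me3 and GLK2 had 2250. The sucrose carriers went the other way, with 1500 on SUC1 and 1200 on SUC2.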

How the data were processed

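The submitters' processing notes name Bowtie, SICER and TAIR10, without versions or settings. For each mark the authors deposited 1 list of domains, each with a score of unstated unit, and the use of replicates and input in making it is unknown. Starts and widths are multiples of 150 bases (H3K4me3) or 300 (H3K27me3). The mRNA values, as deposited, are a signal, read coverage averaged over the exons of a gene. Their scaling and the library's depth are unknown, so no sampling error can be given.

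Gene bodies came from the RefSeq table of TAIR10.1, used for overlaps and names only and without strand, so ends of genes were not told apart. Printed positions are domain positions, 1-based in TAIR10. A gene carried a mark at 150 or more body bases; the stated rule gave 161 genes. Shares have exact Clopper-Pearson and medians order-statistic 95% intervals, which cover counting error only. Python 3.11.15, numpy 2.4.6, pandas 2.3.3, scipy 1.17.1 and matplotlib 3.10.9 were used.

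Named genes were the 10 deepest; the 10 with most bases under both marks, most H3K27me3 bases or largest H3K27me3 share; those with strong domains of both; the 5 on each side of the depth limit; the 5 with fewest H3K27me3 bases; list members; and adjacent pairs. Counts of 5 or fewer, close relatives and other role examples were named after their values were seen. The genes, lists and roles were chosen with earlier results of these data known. Alternatives were other depth and base limits, strong domains, shifted domains and no overlapping genes. A planned search for promoter motifs was not run, as promoter sequences were not used here.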

Additional observations from a re-analysis of the deposited data

How the results depend on the processing

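The number of very abundant genes with both marks, 161, became 275 at a depth limit of 40 and 89 at 160. It was 36 when each mark had to cover 50% of the body, 27 with strong domains of both marks and 43 with strong H3K27me3 only. The share of very abundant genes with H3K27me3, 17.5%, became 13.8% at a depth limit of 40, 20.3% at 160, 13.1% at 600 bases, 5.69% at 50% of the body and 5.39% with strong domains, for both settings of strong domains. With strong domains, the median share of the body under H3K27me3 fell from 32.3% to 0 and the median number of bases under both marks from 600 to 0, since most of these genes then had no H3K27me3 domain. A limit of 1, 300 or 600 bases gave 162, 160 or 109 genes. With all domains moved 300 bases left or right there were 162 and 167 genes, of which 157 and 161 were shared with the 161. Without the genes that overlap another gene, 125 genes and 19.6% remained. No paired analysis was possible because each mark has 1 domain list and mRNA has 1 library. For the same reason no replicate could be left out. Promoter motifs were not run.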
